A study of Mus musculus with 6 samples.

Results

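The tubulin isotype genes are the mouse genes for the interchangeable alpha- and beta-tubulin subunits of microtubules. The 10 described here, of 54532 genes in each expression table, were taken by name and matched to Ensembl identifiers through GENCODE M21. They are the alpha-tubulin genes Tuba1a, Tuba1b, Tuba1c, Tuba3a, Tuba3b and Tuba8 and the beta-tubulin genes Tubb2a, Tubb4b, Tubb5 and Tubb6, and all 10 passed the filter on low values, Tuba8 through its EE_KO and WT libraries. RNA was sequenced from testis cells that were enriched for pachytene spermatocytes by STA-PUT, a sedimentation of living cells at unit gravity that separates them by size, at about postnatal day 80. The EE_KO group carries MAPS EE on the MAPS knockout background and is labelled as overexpression of MAPS in that background. The KO group is MAPS-/-, the WT group is labelled only as such, and each group has 2 libraries. The source gives 3 mice of 1 genotype per group for the purification and 2 independent experiments, but not whether a library pools mice, what the letters EE stand for, or which promoter drives MAPS in EE_KO. The study asked about the silencing of the sex chromosomes in pachytene cells that lack MAPS; the tubulin genes were read from the same libraries.

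Microtubules are hollow tubes built from dimers of 1 alpha- and 1 beta-tubulin, and mammals encode several near-identical forms of each. General forms such as Tuba1b and Tubb5 are used by dividing and somatic cells, whereas Tuba3a and Tuba3b are the alpha-tubulins of the male germ line and Tubb4b is a beta-tubulin of cilia and sperm tails. The isotypes differ most in their acidic C-terminal tails, which project from the microtubule surface and are where enzymes add or remove glutamate, glycine and the last tyrosine.

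The ends of the coding sequences are shown because they encode these tails. Each is the last 60 bases of the coding sequence in the GENCODE M21 transcript (GRCm38), stop codon included, 5′ to 3′ on the coding strand, with the last codon before the stop in capitals. All lie within the last exon: Tuba3a at chr6:125278358-125278417 (minus strand), Tuba8 at chr6:121226020-121226079 (plus), Tuba1c at chr15:99037950-99038009 (plus), Tubb4b at chr2:25222308-25222367 (minus) and Tubb5 at chr17:35834982-35835041 (minus).
Tuba3a: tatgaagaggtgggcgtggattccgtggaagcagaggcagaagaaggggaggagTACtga
Tuba8: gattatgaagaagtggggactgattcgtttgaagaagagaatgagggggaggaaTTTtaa
Tuba1c: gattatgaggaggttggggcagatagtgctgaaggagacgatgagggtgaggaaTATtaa
Tubb4b: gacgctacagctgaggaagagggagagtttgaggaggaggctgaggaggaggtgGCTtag
Tubb5: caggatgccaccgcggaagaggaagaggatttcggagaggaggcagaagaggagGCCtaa
The capitals read TAC or TAT, codons for tyrosine, in Tuba3a and Tuba1c. In Tuba8 they read TTT, a codon for phenylalanine, and in the beta genes shown they read GCT or GCC, codons for alanine. Among the last 20 codons, GAA or GAG, the codons for glutamate, numbered 8 in Tuba3a, 8 in Tuba8, 6 in Tuba1c, 10 in Tubb4b and 9 in Tubb5.

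Tuba3a and Tuba3b end in the same 60 bases and are alike over the rest of their coding sequences, with an identity of 97.0% and 41 differing bases of 1353. The stretch of 60 coding bases within 1 exon where they differ most is shown as an example of the differences by which reads can be told apart. It spans coding bases 313 to 372 in exon 3, at chr6:125282356-125282415 (minus strand) for Tuba3a and chr6:145618818-145618877 (plus strand) for Tuba3b, with the 9 bases that differ within it in capitals.
Tuba3a: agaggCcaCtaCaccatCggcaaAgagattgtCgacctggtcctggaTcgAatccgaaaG
Tuba3b: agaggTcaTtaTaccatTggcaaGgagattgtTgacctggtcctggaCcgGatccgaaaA
Of all windows of 50 bases in the Tuba3a transcript, 32.4% also occur in that of Tuba3b. The Tuba1a, Tuba1b and Tuba1c coding sequences are 97.6 to 98.4% identical to one another and share 42.5 to 59.3% of their transcript windows of 50 bases. The sources used here do not say how the authors assigned reads that match more than 1 gene, so the split of reads within these 2 families is uncertain, whereas Tuba3a and Tuba3b share no such window with Tuba1a, Tuba1b or Tuba1c. The beta members share at most 0.0641% of such windows with one another. Tubb4b shares 43.6% of its windows with the processed pseudogene Tubb4b-ps1, which read 21.3 and 24.7 FPKM in EE_KO, 1.9998 and 1.77 FPKM in KO, and 24.3 and 25.02 FPKM in WT.

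The libraries hold between 14178387 and 16565238 reads on genes. A single read over 2 kb is worth 0.0278 to 0.0357 FPKM (fragments per kilobase of transcript per unit of a library size set by the authors). The size implied by the values did not follow the reads on genes. It was 17966256 and 17373643 in KO, above the 15886958 and 14178387 reads on genes there. In WT it was 13999590 and 15135989, below the 15947288 and 16234001 reads, and in EE_KO it was also below them. FPKM in KO are thus scaled lower relative to reads on genes than in the other groups. The MAPS gene, 1700102P08Rik, read 109 and 82.2 FPKM in EE_KO, 7.97 and 10.1 FPKM in KO, and 157 and 150.2 FPKM in WT. The KO libraries stood apart in their cell type markers. The summed FPKM of 12 pachytene markers was 5534 and 5959 in EE_KO, 199 and 232 in KO, and 6483 and 5821 in WT, and no marker of the list was at 0 in any group. In KO all 12 pachytene and all 10 spermatid markers lay below both WT libraries, while all 15 Sertoli, all 9 Leydig, 8 of 9 spermatogonial, 10 of 11 peritubular and endothelial and 9 of 10 macrophage and leukocyte markers lay above them. The 1 other spermatogonial marker and the 1 other peritubular or endothelial marker went the opposite way, below both WT libraries. The Sertoli sum was 467 and 253 FPKM in EE_KO, 3969.8 and 3815 in KO, and 290.1 and 296 in WT, and the spermatid sum was 2153 and 3189.7 in EE_KO, 19.0 and 19.2 in KO, and 1656 and 3439.9 in WT. The Leydig sum was 183 and 87.0 FPKM in EE_KO, 2292 and 2195 in KO, and 61.6 and 113 in WT. Among the markers of cells other than spermatocytes only C1qa, of macrophages, was at 0 in both libraries of a group, WT. In RNA from many cells, fewer cells of a type and less RNA per cell cannot be told apart. The part of these shifts in the tubulin results was not tested.

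**Figure D1:**
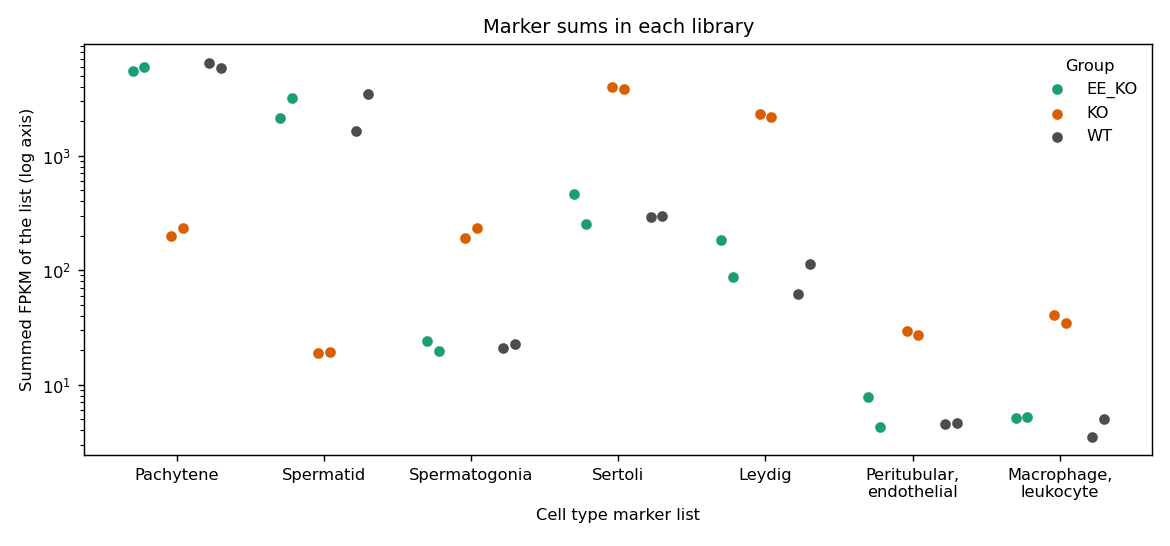
Summed FPKM (log axis) of 7 marker lists in each of the 6 libraries, 1 point per library. The KO libraries lie below the EE_KO and WT libraries for pachytene and spermatid markers and above them for the 5 other lists.

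Levels below are FPKM per library, and changes are differences in log2(FPKM + 1) with limma's standard error (SE), from 1 fit of 15907 genes with a mean of at least 1 FPKM. Calls are genes whose p, adjusted by the Benjamini-Hochberg method across that whole table, was below 0.05. The added 1 FPKM understates the change of low genes. With 2 libraries per group, the p-values reflect library-to-library spread, which may be technical.

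In KO against WT the testis and sperm-tail isotypes Tuba3a, Tuba3b and Tubb4b fell, as did Tuba8, and the general isotypes rose. Of the 10 members, 9 were called, beside 84.8% of all genes tested, so that the count itself does not set the tubulin genes apart. The 5 that rose were Tuba1a, Tuba1b, Tuba1c, Tubb5 and Tubb6, beside 37.7% of all genes, and the 4 that fell were Tuba3a, Tuba3b, Tuba8 and Tubb4b, beside 47.1%. Only Tubb2a, a beta-tubulin that is abundant in neurons, was not called. Tuba8 passed the filter only through its EE_KO and WT libraries, so its place in these counts is a description. The KO and WT libraries did not overlap for 9 members, as for 92.7% of all genes. The KO against WT and EE_KO against KO comparisons share the KO libraries, and the EE_KO against WT comparison shares libraries with both.

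Tuba3a, a testis alpha-tubulin, read 1607 and 1777 FPKM in EE_KO, 80.7 and 119 FPKM in KO, and 1701 and 1546 FPKM in WT. Both KO libraries lay far below the other 4, among which EE_KO and WT overlapped. The KO mean was 6.16% of the WT mean, a change of -4.03 (SE 0.19, adjusted p = 2.66e-06). Tuba3b, its near copy 20.3 Mb away on chromosome 6, read 1414 and 1553 FPKM in EE_KO, 58.2 and 95.4 FPKM in KO, and 1571 and 1429.9 FPKM in WT. The pattern was the same, with KO at 5.12% of WT and a change of -4.31 (SE 0.22, adjusted p = 3.77e-06). In EE_KO against KO the changes were 4.09 for Tuba3a and 4.30 for Tuba3b (SE 0.19 and 0.22, adjusted p = 2.70e-06 and 4.22e-06).

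In EE_KO and in WT, Tuba3a and Tuba3b ranked 4th and 5th by mean FPKM among all genes, and in KO they ranked 237th and 367th. The ratio of Tuba3a to Tuba3b FPKM was 1.14 and 1.14 in EE_KO, 1.39 and 1.25 in KO, and 1.08 and 1.08 in WT. The groups did not overlap in this ratio, and Tuba3a was the higher of the pair by FPKM in every library. An exact permutation test of 2 libraries against 2 cannot give a p below 0.333, which was the p of each of these differences (two-sided, 69 such tests on tubulin shares and sums in all), so none can pass a threshold of 0.05. By reads, before division by exon length, Tuba3b was the higher of the pair in EE_KO and WT. In WT it had 39044 and 38416 reads, against 35926 and 35310 for Tuba3a. The order of the pair thus depends on the lengths used and on the uncertain split of shared reads.

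Tuba8, the alpha-tubulin whose coding sequence ends in the phenylalanine codon shown above, lies on chromosome 6 as well, 4.05 Mb from Tuba3a. It read 19.4 and 27.0 FPKM in EE_KO, 0.295 and 0.280 FPKM in KO, and 11.2 and 20.4 FPKM in WT. The KO values rest on 12 and 11 reads. The KO mean was 1.82% of the WT mean, the lowest share of any member, and the change was -3.65 (SE 0.28, adjusted p = 1.88e-05). Its filter pass rested on the EE_KO and WT libraries, so this change and its p are descriptions. Without the added 1 FPKM, voom on recovered reads gave a change of -5.67. The change in EE_KO against KO was 4.21, and 6.25 with voom. In WT the library with the lower Tuba8 level, replicate 1, also had the lower spermatid sum, 1656 against 3439.9 FPKM. Tuba1a, Tuba1c, Tubb2a and Tubb6 were lower in that library as well, and Tuba1b, Tuba3a, Tuba3b, Tubb4b and Tubb5 were higher. A link of any of these levels to the spermatid sum was not tested.

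The general alpha-tubulins moved the other way. Tuba1a, a major alpha-tubulin of neurons and many other cells, read 23.6 and 15.2 FPKM in EE_KO, 188 and 164 FPKM in KO, and 15.9 and 17.002 FPKM in WT. Both KO libraries lay above the other 4, and EE_KO and WT overlapped. The KO mean was 10.7 times the WT mean, a change of 3.34 (SE 0.20, adjusted p = 6.17e-06). Tuba1b, the widely expressed alpha-tubulin of dividing cells, read 23.7 and 23.4 FPKM in EE_KO, 106 and 103 FPKM in KO, and 21.6 and 20.0 FPKM in WT. It stood 5.03 times higher in KO than in WT, with a change of 2.28 (SE 0.09, adjusted p = 1.54e-06), and of 2.96 after quantile normalization. Tuba1c, also a general form, read 10.2 and 11.1 FPKM in EE_KO, 45.7 and 57.8 FPKM in KO, and 6.25 and 9.24 FPKM in WT. Its KO level was 6.68 times that of WT, a change of 2.60 (SE 0.19, adjusted p = 1.65e-05).

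These 3 genes sit together on chromosome 15 within 107 kb (98931425 to 99038110), with 5 other annotated genes between or across them, of which 1 is protein coding. In EE_KO against KO their changes were -3.15 for Tuba1a, -2.10 for Tuba1b and -2.17 for Tuba1c (SE 0.20, 0.09 and 0.19, limma adjusted p = 8.63e-06, 2.25e-06 and 4.04e-05). Quantile normalization gave -2.77 for Tuba1b in this comparison. The rise was uneven: the ratio of Tuba1a to Tuba1b FPKM was 0.994 and 0.650 in EE_KO, 1.77 and 1.59 in KO, and 0.739 and 0.851 in WT. EE_KO and WT overlapped in this ratio and KO lay above both.

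Tubb4b, the beta-tubulin of cilia and sperm tails, read 673 and 701 FPKM in EE_KO, 124 and 124 FPKM in KO, and 740.2 and 691 FPKM in WT. The KO libraries lay below all others and differed little from each other. The KO mean was 17.3% of the WT mean, a change of -2.52 (SE 0.10, adjusted p = 1.42e-06), and the change of EE_KO against KO was 2.46 (SE 0.10, adjusted p = 1.66e-06). After quantile normalization these changes were -1.67 and 1.71, still called. Its fitted change was smaller in size than those of Tuba3a and Tuba3b, and it stayed the beta member with the highest level in KO, at rank 168 among all genes, against rank 27 in EE_KO and in WT. Fam166a, on the opposite strand, overlaps its end and read 34.7 and 39.4 FPKM in EE_KO, 0.346 and 0.563 FPKM in KO, and 27.9 and 40.1 FPKM in WT. The sources used here do not give the strand of the reads, so reads of the overlap cannot be told apart. Other annotated genes also overlap Tuba1a, Tuba1b, Tuba3a and Tuba8, at no more than 4.43 FPKM in any library.

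Tubb5, the general beta-tubulin of dividing and somatic cells, read 14.2 and 9.10 FPKM in EE_KO, 118 and 93.4 FPKM in KO, and 10.5 and 8.28 FPKM in WT. It stood 11.2 times higher in KO than in WT, with a change of 3.36 (SE 0.22, adjusted p = 1.05e-05), close to that of Tuba1a. Its change in EE_KO against KO was -3.09 (SE 0.22, adjusted p = 1.63e-05). Quantile normalization gave 3.97 and -3.70 for these changes. EE_KO replicate 1 lay above replicate 2 for Tuba1a and Tubb5, and its Sertoli sum, 467 against 253 FPKM, and Leydig sum, 183 against 87.0 FPKM, were higher as well. Tuba1c ran the other way, with 10.2 and 11.1 FPKM, and Tuba1b and Tubb6 differed little between these replicates.

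Tubb6, a beta-tubulin found at low levels in many tissues, read 12.1 and 11.7 FPKM in EE_KO, 24.7 and 21.4 FPKM in KO, and 6.42 and 10.9 FPKM in WT. The KO libraries were highest, and both EE_KO libraries lay above both WT libraries. The change in KO against WT was 1.35 (SE 0.22, adjusted p = 0.000886). That in EE_KO against KO was -0.89 (SE 0.22, adjusted p = 0.00706), and this call was lost without KO replicate 1 (-0.79, adjusted p = 0.0537). Tubb2a read 2.04 and 2.08 FPKM in EE_KO, 1.87 and 1.47 FPKM in KO, and 1.24 and 1.48 FPKM in WT. Its KO and WT libraries overlapped, and the change of 0.17 was not called (SE 0.16, adjusted p = 0.329). Tubb2a was called as higher in KO on the TPM scale (0.44, adjusted p = 0.0275) and after quantile normalization (0.49, adjusted p = 0.0194).

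**Figure D2:**
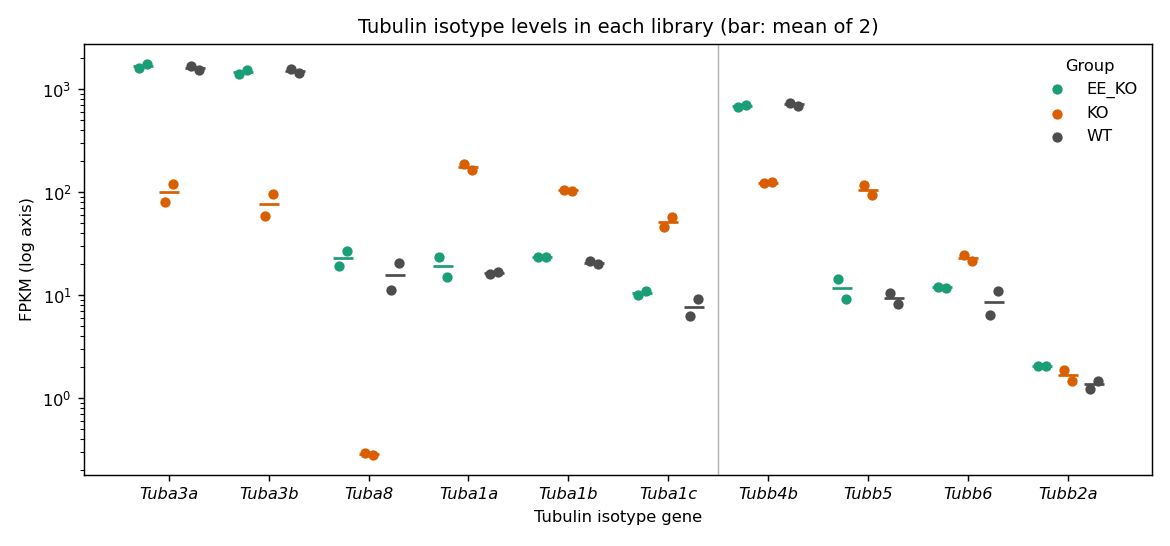
FPKM (log axis) of the 10 members in each library, alpha genes left of the line and beta genes right of it; points are libraries and bars are means of 2. Tuba3a, Tuba3b, Tuba8 and Tubb4b are lowest in KO, whereas Tuba1a, Tuba1b, Tuba1c, Tubb5 and Tubb6 are highest there.

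The order of the members by level therefore differed between the groups. In EE_KO it ran Tuba3a, Tuba3b, Tubb4b, Tuba1b, Tuba8, Tuba1a, Tubb6, Tubb5, Tuba1c and Tubb2a, and Tuba1b, Tuba8 and Tuba1a overlapped with their neighbours, as did Tubb6, Tubb5 and Tuba1c. In KO it ran Tuba1a, Tubb4b, Tubb5, Tuba1b, Tuba3a, Tuba3b, Tuba1c, Tubb6, Tubb2a and Tuba8, and neighbours from Tubb5 to Tuba3b overlapped. In WT it ran Tuba3a, Tuba3b, Tubb4b, Tuba1b, Tuba1a, Tuba8, Tubb5, Tubb6, Tuba1c and Tubb2a. There Tuba3a overlapped with Tuba3b, Tuba1a with Tuba8, and Tubb5, Tubb6 and Tuba1c with their neighbours.

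As a share of the summed FPKM of the 6 alpha members, Tuba3a and Tuba3b together held 97.6 ± 0.164% in EE_KO, 34.4 ± 7.56% in KO and 98.1 ± 0.382% in WT (SD, n = 2 each). By library the share was 97.5 and 97.8% in EE_KO, 29.0 and 39.7% in KO, and 98.3 and 97.8% in WT. Tuba1a, Tuba1b and Tuba1c together held 1.66 ± 0.282% in EE_KO, 65.6 ± 7.55% in KO and 1.42 ± 0.145% in WT. Shares within a library do not depend on how that library was scaled. The KO libraries lay apart from the other 4 in both shares, by far more than the gap between replicates.

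Among the 4 beta members Tubb4b held 96.4 ± 0.624% in EE_KO, 49.0 ± 3.91% in KO and 97.3 ± 0.364% in WT, and Tubb5 held 1.64 ± 0.547% in EE_KO, 41.3 ± 3.59% in KO and 1.27 ± 0.156% in WT. Tubb6 held 1.67 ± 0.0742% in EE_KO, 9.05 ± 0.2497% in KO and 1.19 ± 0.489% in WT (SD, n = 2 each). Tubb3, a beta-tubulin best known from neurons that is not among the 10 members, changes these shares. It read 12.2 and 6.94 FPKM in EE_KO, 127 and 119 FPKM in KO, and 8.14 and 7.78 FPKM in WT, and its change in KO against WT was 3.79 (SE 0.22, limma adjusted p = 6.43e-06), or 4.39 after quantile normalization. With every beta-tubulin gene in the sum, Tubb3 held 1.33 ± 0.542% in EE_KO, 32.6 ± 0.677% in KO and 1.07 ± 0.0139% in WT. Tubb4b then held 95.1 ± 1.15% in EE_KO, 33.0 ± 2.28% in KO and 96.3 ± 0.368% in WT, so that in KO no gene of the family held a majority.

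**Figure D3:**
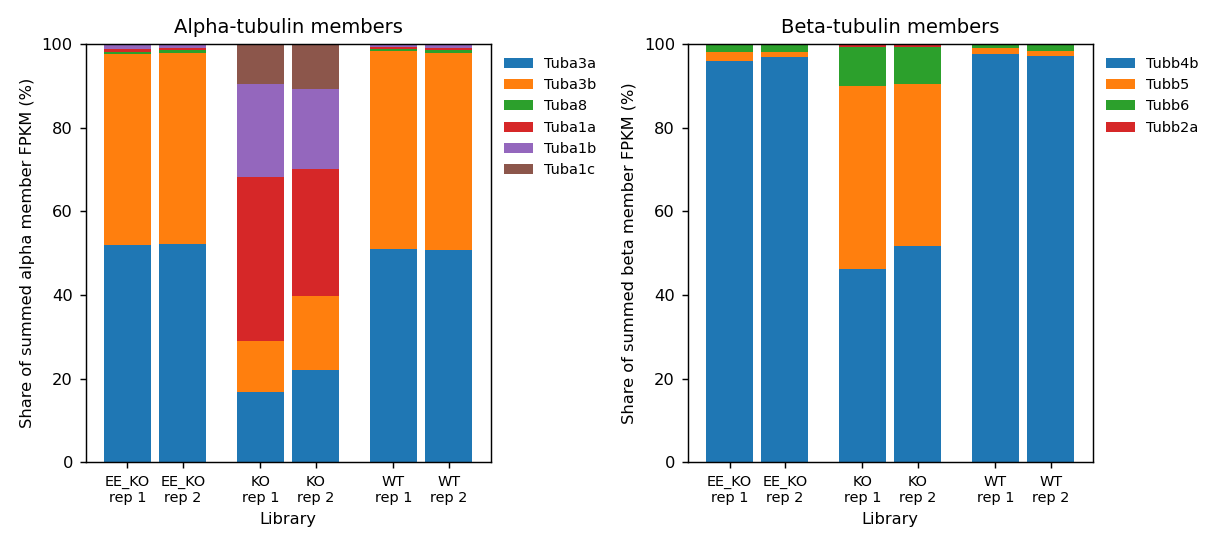
Stacked shares of each member in the summed FPKM of the 6 alpha members (left) and the 4 beta members (right), 1 bar per library. Tuba3a and Tuba3b make up 97.5 to 98.3% of the alpha sum in EE_KO and WT and 29.0 to 39.7% in KO, and Tubb4b makes up 46.2 to 51.7% of the beta sum in KO.

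The rise of the general forms did not balance the fall of Tuba3a, Tuba3b and Tubb4b in FPKM. The summed alpha level was 3252 ± 219 FPKM in EE_KO, 509 ± 44.0 FPKM in KO and 3185 ± 201 FPKM in WT. The summed beta level was 712 ± 15.7 FPKM in EE_KO, 254 ± 19.2 FPKM in KO and 735 ± 33.3 FPKM in WT (SD, n = 2 each). Among the members, the ratio of the alpha to the beta sum was 4.42 and 4.71 in EE_KO, 1.79 and 2.25 in KO, and 4.39 and 4.28 in WT. KO thus lay below both other groups. This ratio leaves out Tubb3, which would lower it, most of all in KO. All 10 members held 1.24 ± 0.0476% of all FPKM in EE_KO, 0.316 ± 0.0277% in KO and 1.19 ± 0.0364% in WT.

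In EE_KO against WT limma called 0 of the 10 members, beside 0.0377% of all genes tested (0.0189% higher and 0.0189% lower), and 0 were below an unadjusted p of 0.05. With voom on recovered reads, 0 were called and 1 was below an unadjusted p of 0.05. The changes ran from -0.06 for Tubb4b (SE 0.10, 95% interval -0.30 to 0.18) to 0.56 for Tuba8 (SE 0.28, 95% interval -0.10 to 1.23). For Tuba3a the difference was 0.06 (95% interval -0.40 to 0.52) and for Tuba3b -0.02 (95% interval -0.55 to 0.52), so that differences within these intervals remain possible. The bounds are not the smallest difference that would be called. The MAPS gene, with a change of -0.70 (SE 0.16, limma adjusted p = 0.320), was itself not called in EE_KO against WT. Both EE_KO libraries lay above both WT libraries for Tuba1b, Tuba1c, Tubb2a and Tubb6, 4 of 10 members, beside 36.2% of all genes whose EE_KO and WT libraries did not overlap. In EE_KO against KO 9 members were called, beside 84.2% of all genes: Tuba3a, Tuba3b, Tuba8 and Tubb4b were higher, beside 46.8% of all genes, and Tuba1a, Tuba1b, Tuba1c, Tubb5 and Tubb6 were lower, beside 37.4%. The EE_KO and KO libraries did not overlap for any of the 10, as for 92.7% of all genes. The Tuba8 call is again only a description, since its KO libraries alone would not have passed the filter.

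**Figure D4:**
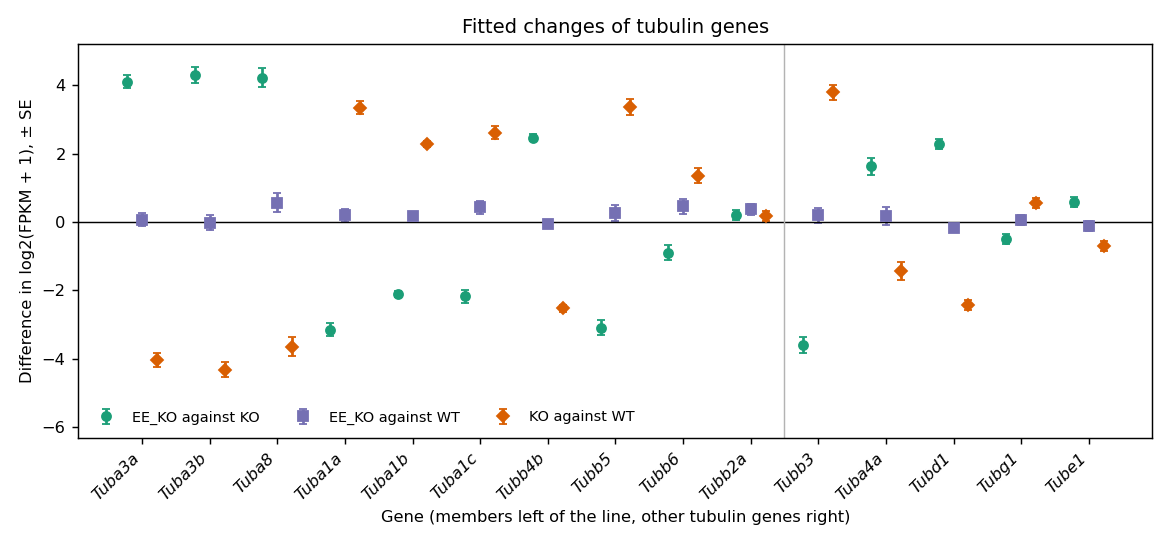
Fitted differences in log2(FPKM + 1) with limma's SE for the 10 members (left of the line) and 5 other tubulin genes (right) in EE_KO against KO, EE_KO against WT and KO against WT. The EE_KO against WT values stay between -0.16 and 0.56, whereas the members other than Tubb2a lie away from 0 in the comparisons with KO.

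Of the 10 other tubulin genes with values, 5 passed the filter. Tuba4a, an alpha-tubulin gene whose product ends without the encoded tyrosine, read 7.47 and 10.5 FPKM in EE_KO, 1.97 and 2.47 FPKM in KO, and 5.91 and 9.997 FPKM in WT. It fell in KO against WT by 1.44 on the log2 scale (SE 0.26, adjusted p = 0.00143). Tubd1 and Tube1 encode delta- and epsilon-tubulin, which are needed for the triplet microtubules of centrioles. Tubd1 averaged 29.2 ± 0.933 FPKM in EE_KO, 5.23 ± 0.321 FPKM in KO and 33.0 ± 6.14 FPKM in WT, a change of -2.44 in KO against WT (SE 0.14, adjusted p = 6.23e-06). Tube1 averaged 1.76 ± 0.229 FPKM in EE_KO, 0.833 ± 0.0670 FPKM in KO and 1.99 ± 0.0762 FPKM in WT. Its change was -0.70 (SE 0.15, adjusted p = 0.00359) and was not called after quantile normalization. Tube1 passed the filter only through its EE_KO and WT libraries, so this change and its p are descriptions. Tubg1, the gamma-tubulin that nucleates microtubules, moved the other way, with 6.95 ± 1.09 FPKM in EE_KO, 10.2 ± 0.278 FPKM in KO and 6.65 ± 0.533 FPKM in WT, a change of 0.56 (SE 0.14, adjusted p = 0.00791). Tubg2 stayed at or below 1.35 FPKM, and Tubal3, Tubb1, Tubb2b and Tubb4a at or below 0.314 FPKM, in every library.

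Most genes for the enzymes that modify tubulin fell in KO. Of 26 tested on the 3 modification lists, 21 fell and 2 rose, beside 47.1% lower and 37.7% higher among all genes tested. The median change was -2.64, beside -0.26 over all genes. Ttll7, Ttll8 and Agbl4, with KO means of 0.486, 0.223 and 0.251 FPKM, passed the filter only through their EE_KO and WT libraries, so that their counts and the medians of their lists are descriptions. These lists were chosen with earlier results of these libraries known, and spermatocyte and spermatid markers fell beside them. Of 15 glutamylases, glycylases and their partners, 13 fell, beside the same 47.1% of all genes, with a median of -2.88. Ttll13, a polyglutamylase, averaged 112 ± 7.20 FPKM in EE_KO, 3.71 ± 0.403 FPKM in KO and 117 ± 4.14 FPKM in WT, a change of -4.65 (SE 0.11, limma adjusted p = 3.84e-07). Ttll6, which elongates glutamate chains, changed by -4.26, and Ttll5, an alpha-tubulin glutamylase, by -3.28. Ttll4, a glutamylase that prefers beta-tubulin, was the 1 gene of the list that rose (0.58, SE 0.15, adjusted p = 0.00823), and Tpgs1, a subunit of the glutamylase complex, was not called (-0.23).

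The 5 deglutamylases tested, Agbl4 among them, fell, beside 47.1% of all genes, with a median of -3.14. Agbl5, which removes the glutamate at branch points, averaged 172 ± 1.89 FPKM in EE_KO, 7.24 ± 0.140 FPKM in KO and 176 ± 9.93 FPKM in WT, a change of -4.43 (SE 0.09, limma adjusted p = 3.84e-07). Agbl2 changed by -4.30 and Agbl4 by -3.14. Of 6 genes for tyrosine removal and acetylation, 3 fell and 1 rose, beside 47.1% lower and 37.7% higher among all genes, so that the count does not set this list apart. Vash2, an enzyme that cuts off the last tyrosine, fell by 2.71 on the log2 scale, its partner Svbp fell by 2.84, and the deacetylase Sirt2 fell by 1.31. Hdac6, a tubulin deacetylase, rose: it averaged 10.98 ± 4.61 FPKM in EE_KO, 99.4 ± 2.45 FPKM in KO and 8.69 ± 0.480 FPKM in WT, a change of 3.37 (SE 0.24, limma adjusted p = 1.40e-05). Its EE_KO libraries read 14.2 and 7.72 FPKM, with replicate 1 higher, as for Tuba1a and Tubb5.

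Of 15 genes of the CCT chaperonin and prefoldin, which fold new tubulin, 12 fell and 2 rose, beside 47.1% lower and 37.7% higher among all genes, with a median of -0.96. Cct6b, a testis form of a CCT subunit, averaged 187 ± 8.16 FPKM in EE_KO, 5.16 ± 1.15 FPKM in KO and 210.3 ± 18.4 FPKM in WT, a change of -5.11 (SE 0.15, limma adjusted p = 4.81e-07). Tcp1 and Cct7, general CCT subunits, changed by -3.17 and -2.38, and the prefoldin genes Vbp1 and Pfdn2 rose by 2.81 and 0.41. On the TPM scale 9 of the 15 fell and 3 rose, where 6508 of all 15907 genes fell and 7054 rose. After quantile normalization 8 fell and 2 rose, where 6516 of all genes fell and 6820 rose. The tubulin cofactors, which assemble the dimer, split without a clear direction. On the deposited scale 4 of 8 fell and 2 rose, beside the same 47.1% and 37.7% of all genes. On the TPM scale 1 fell and 4 rose, and after quantile normalization 2 fell and 4 rose. Tbce and Tbcd rose by 0.98 and 0.68, and Tbcc, Tbca and Tbcel changed by -1.03, -0.71 and -0.53.

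Of 8 genes of the gamma-tubulin ring complex, 4 fell and 3 rose, beside 47.1% lower and 37.7% higher among all genes. These counts do not set the list apart. Of those that fell, Mzt2 (-3.59), Tubgcp4 (-1.52) and Tubgcp2 (-1.11) had the smallest p, and those that rose were Tubgcp5 (1.46), Tubgcp3 (1.36) and Mzt1 (1.01). Of 24 regulators of microtubule growth and severing, 10 fell and 10 rose, with a median of 0.21. These 20 calls stand beside 84.8% of all genes, 47.1% lower and 37.7% higher, so that the count does not set the list apart. Map1a and Map2 passed the filter only through EE_KO and WT libraries, and Mapre2 only through KO libraries. Katnal2, a katanin-like severing protein gene, changed by -3.67 and the plus-end protein gene Mapre3 by -1.99. Map1b, a microtubule-associated protein of neurons, rose by 2.45, the minus-end protein gene Camsap3 by 2.29, and the plus-end protein gene Mapre1 by 1.57. Across the 81 pathway genes tested, limma called 0 in EE_KO against WT, beside 0.0377% of all genes, with 4 below an unadjusted p of 0.05, and voom called 0, with 7 below it. EE_KO against KO had 49 higher and 20 lower, beside 46.8% and 37.4% of all genes (84.2% called).

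**Figure D5:**
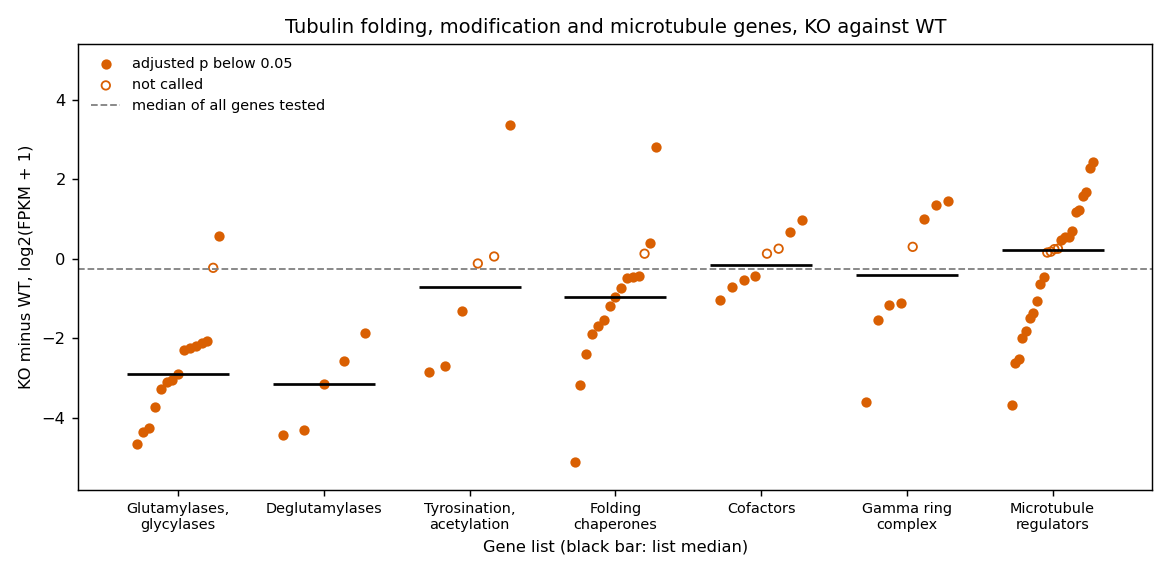
Differences in log2(FPKM + 1), KO minus WT, for each gene tested on 7 lists, with list medians as black bars and the median of all genes as a dashed line at -0.26. Filled points were called, and the glutamylase and deglutamylase lists have medians of -2.88 and -3.14.

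By Euclidean distance of log2(FPKM + 1) over the 6 libraries, centred on the WT mean, the protein-coding genes most like Tuba3b among 12171 compared were Clgn (distance 0.122), Mapk15 (0.166) and Ddx25 (0.192). Clgn encodes the testis chaperone calmegin and averaged 324 ± 20.0 FPKM in EE_KO, 15.2 ± 4.48 FPKM in KO and 326 ± 25.8 FPKM in WT. Tuba3a came 58th in this order, at 0.421, Tuba8 911th, at 1.52, and Tubb4b 1580th, at 2.59. The genes most like Tubb5 were Wt1 (0.115), Acsl4 (0.129) and Furin (0.171). Wt1, a transcription factor that marks Sertoli cells and belongs to the Sertoli list, averaged 6.61 ± 2.42 FPKM in EE_KO, 61.9 ± 6.96 FPKM in KO and 5.26 ± 0.682 FPKM in WT. Tuba1a came 37th, at 0.316, Tuba1c 1220th, at 1.41, and Tuba1b 1448th, at 1.60, so that among the general forms Tuba1a lay nearest to Tubb5. These distances rest on 6 libraries in 3 groups, and all genes compared share the depth and cell makeup of those libraries.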

How the data were processed

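The files hold 1 FPKM value per Ensembl gene and library, per the file headers; the authors computed them. The submitters' processing notes name GRCm38 and mm10, and the labels' protocols give 1.3 µg of total RNA and a SMARTer kit. No aligner, counter or read strand is given in the sources used here. Of the 54532 identifiers, 54495 were matched to GENCODE M21 for symbols, positions and lengths. Multiplying FPKM by exon length and by each library's implied size (13999590 to 17966256) gave read numbers within 0.01 of whole for 96.8 to 97.0% of values above 0, although not for Tubb6. This size is a scaling factor and not a count of the reads on genes, and the sources used here do not say how it was set. The 15907 genes averaging at least 1 FPKM entered a linear model in limma 3.58.1 under R 4.3.3, with the 6 libraries as log2(FPKM + 1), a variance trend and no replicate block. The p-values were adjusted by the Benjamini-Hochberg method over these genes. Shares were compared with exact two-sided permutation tests over libraries. The fit was tested on simulated data in which only a small part of the genes changed. In KO against WT 84.8% of genes were called, so that run does not show how the fit behaves under so broad a change.

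The members and gene lists were chosen with earlier results of these data known. The 10 members and the other tubulin genes were named in full. On each pathway list up to 3 called genes with the smallest p in KO against WT were named in each direction; Tpgs1 was named after its value was seen. A named gene of the regulator list and some sequences are not reported here. The 3 nearest genes of Tuba3b and Tubb5 were named by distance. Alternatives changed the pseudocount (0.1 or 0.5 FPKM), the filter (none, or a mean of 5 FPKM or more), the scale (TPM or quantile normalization), the libraries fitted (only the 2 groups compared, or 1 library left out), the model (a replicate block, no trend, or voom on recovered reads) and the denominators of the shares. Leaving out short RNA genes was added after seeing the data. Tables used Python 3.11.15 with pandas 2.3.3, scipy 1.17.1 and numpy 2.4.6, and figures matplotlib 3.10.9.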

Additional observations from a re-analysis of the deposited data

How the results depend on the processing

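The 9 calls among members in KO against WT, and the absence of calls in EE_KO against WT, held in each alternative run; Tubb2a was also called in KO against WT on the TPM scale and after quantile normalization. For EE_KO against KO 8 or 9 members were called. The median of all genes in KO against WT was -0.26 as deposited, 0.10 on the TPM scale and 0.04 after quantile normalization. Accordingly 5994 genes rose and 7494 fell as deposited, 7054 and 6508 on the TPM scale, and 6820 and 6516 after quantile normalization. With a mean of at least 5 FPKM fewer genes were tested, and the counts called were 7804 for KO against WT and 7762 for EE_KO against KO. In EE_KO against WT 6 genes were called. There were 0 with no filter or with only the groups compared, 2 with a mean of at least 5 FPKM, 3 on the TPM scale or without the trend, and 0 to 14 with 1 library left out (14 without EE_KO replicate 1). The cause was not tested.

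The Tubb4b share of the beta sum differed in KO against WT by -48.4 percentage points, by -63.3 with every beta gene in the sum and by -57.5 as a share of reads. The same 3 values for EE_KO against KO were 47.4, 62.1 and 56.3 points.

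Some uncalled changes in EE_KO against WT changed sign with 1 library left out. They ranged from -0.11 to 0.49 for Tuba1a, -0.013 to 0.13 for Tuba3a, -0.084 to 0.051 for Tuba3b, -0.033 to 0.56 for Tubb5, -0.15 to 0.52 for Tuba4a, -0.17 to 0.56 for Tubb3, -0.090 to 0.19 for Tubg1 and -0.35 to 0.022 for Tubd1. Quantile normalization gave 0 for Tuba3a and 0.037 for Tubb4b, and TPM gave 0.018 for Tuba3b. Tubb2a in EE_KO against KO was -0.062 on the TPM scale and -0.038 after quantile normalization. The Tubg1 call in EE_KO against KO was lost without KO replicate 2 or EE_KO replicate 1 (adjusted p up to 0.0691).

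Same-numbered deviations were correlated across genes, at -0.018 for KO with WT, 0.069 for EE_KO with WT and 0.077 for EE_KO with KO. Each group gives a single such deviation per gene, so these values cannot show whether same-numbered libraries were prepared together. The replicate block called 13471 genes in KO against WT, 2 in EE_KO against WT and 13322 in EE_KO against KO, and its counts of members were those of the fit without it. Depth limits Tuba8 in KO, which rests on 12 and 11 reads.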
